A study of Mus musculus with 10 samples.

Results

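The mitosis and chromosome segregation genes described here are 44 genes of G2 and M phase, of the kinetochore and of cytokinesis. They were taken by symbol from a fixed list of names with no threshold on a measured value. This list and the other gene lists below were chosen with earlier results of these data known. Each of the 44 symbols matched a gene identifier among the 55414 in the count tables, and all 44 passed the filter on low counts. Their transcripts were measured in 10 RNA-seq libraries of jejunum (the middle stretch of small intestine) from male C57BL/6J mice. The RetSat ko group held 5 libraries of the genotype RetSat flox/flox villin-Cre-ERT2 (+), and the control group held 5 libraries of the genotype RetSat flox/flox villin-Cre-ERT2 (-). Retsat encodes retinol saturase, an enzyme that acts on vitamin A. Both groups were given intraperitoneal tamoxifen for 5 days, and both then ate high-fat food (60 kcal% fat) for 14 weeks. The sources used here do not give the age of the mice. The villin promoter drives the tamoxifen-activated Cre recombinase in the intestinal epithelium, so other cells of the jejunal wall keep the floxed gene. The control group carries the floxed alleles without Cre, so loss of Retsat and presence of active Cre cannot be told apart. The labels list separate samples without saying that each came from another mouse, so every p-value refers to the spread among these libraries, which may be technical.

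In the small intestine, cells divide in the crypts, where stem cells and their transit-amplifying daughters lie, and absorptive enterocytes on the villi have left the cell cycle. Cyclin B bound to the kinase Cdk1 starts mitosis, the kinetochores then attach chromosomes to spindle microtubules, and the spindle checkpoint holds back the anaphase-promoting complex until all are attached. That complex marks securin and cyclin B for destruction, the sister chromatids part, and a contractile ring divides the cell. Most of these genes are transcribed in late S, G2 and M phase under the MuvB complex with B-Myb and the factor FoxM1, and they are held silent in resting cells by the related DREAM complex. In RNA from whole tissue, a larger share of dividing cells and more RNA per dividing cell cannot be told apart.

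Total counts lay between 102844680 and 128730695 per library, and each of the 44 genes had between 532 and 16521 counts in every library. Levels are given as CPM, counts per 1000000 of the library size scaled with TMM factors. Retsat itself was at 16.8, 16, 16.4, 15.4 and 33.4 CPM in RetSat ko 1 to 5, against 518, 387, 576, 340 and 381 CPM in control 1 to 5. All RetSat ko libraries lay below all control libraries, with a mean of 19.6 ± 7.76 CPM in RetSat ko and 441 ± 101 CPM in control (SD, n = 5 each, two-sided exact permutation test p = 0.00794, the smallest possible). The epithelial markers Vil1 and Epcam were abundant in every library, Vil1 at 2137 to 2980 CPM in RetSat ko and 2673 to 3517 CPM in control. All 6 epithelial markers summed to 13808, 8499, 10369, 10026 and 9897 CPM in RetSat ko 1 to 5. In control 1 to 5 they summed to 11780, 10445, 13640, 11552 and 11200 CPM, so RetSat ko 1 was the highest of the 10 libraries. Transcripts of other tissues varied between libraries, with pancreatic acinar markers at 2649 CPM in RetSat ko 2 and 459 CPM in RetSat ko 1, and B cell markers at 201 CPM in RetSat ko 2. RetSat ko 1 stood apart from the other RetSat ko libraries in the mitosis genes, so the results are given with and without it.

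Across the 10 libraries the mitosis genes leaned to higher values in RetSat ko by a small amount, and none of them passed the test. All 44 had a positive log2 fold change of RetSat ko over control in edgeR's quasi-likelihood test, from 0.10 for Kif4 to 0.38 for Birc5, with a median of 0.27 (1.20-fold). Over all 18654 tested genes 53.9% were positive and the median was 0.02. After Benjamini-Hochberg adjustment over all tested genes, 0 of 44 passed 0.05 in edgeR (lowest adjusted p = 0.291). In DESeq2 and in limma-voom 0 passed as well (lowest adjusted p = 0.0782 and 0.313). With sample weights in limma-voom 0 passed (lowest adjusted p = 0.0731). In the edgeR fit 0.0214% of all tested genes were called higher. At an unadjusted edgeR p under 0.05 there were 21 of the 44, against 6.79% of all tested genes that were higher at that level. In none of the 44 did all 5 RetSat ko libraries lie above all 5 control libraries. Of all tested genes 1.58% showed that pattern, so 0 of 44 is near the share of all genes.

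The summed level of the 44 genes was compared library by library. It was 914, 1328, 1177, 1353 and 1365 CPM in RetSat ko 1 to 5, against 1072, 1097, 969, 971 and 1026 CPM in control 1 to 5. RetSat ko 1 was the lowest of all 10 libraries, and RetSat ko 2 to 5 were all above the highest control. The group means were 1227 ± 191 CPM in RetSat ko and 1027 ± 58.1 CPM in control (SD, n = 5 each), and RetSat ko 2 to 5 averaged 1306 ± 87.4 CPM (SD, n = 4). Every one of the 44 genes was above its control mean in each of RetSat ko 2, 3, 4 and 5, whereas in RetSat ko 1 only 5 were. In RetSat ko 1 Retsat was as low as in RetSat ko 2 to 4, so the label of this library holds for the targeted gene.

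**Figure D1:**
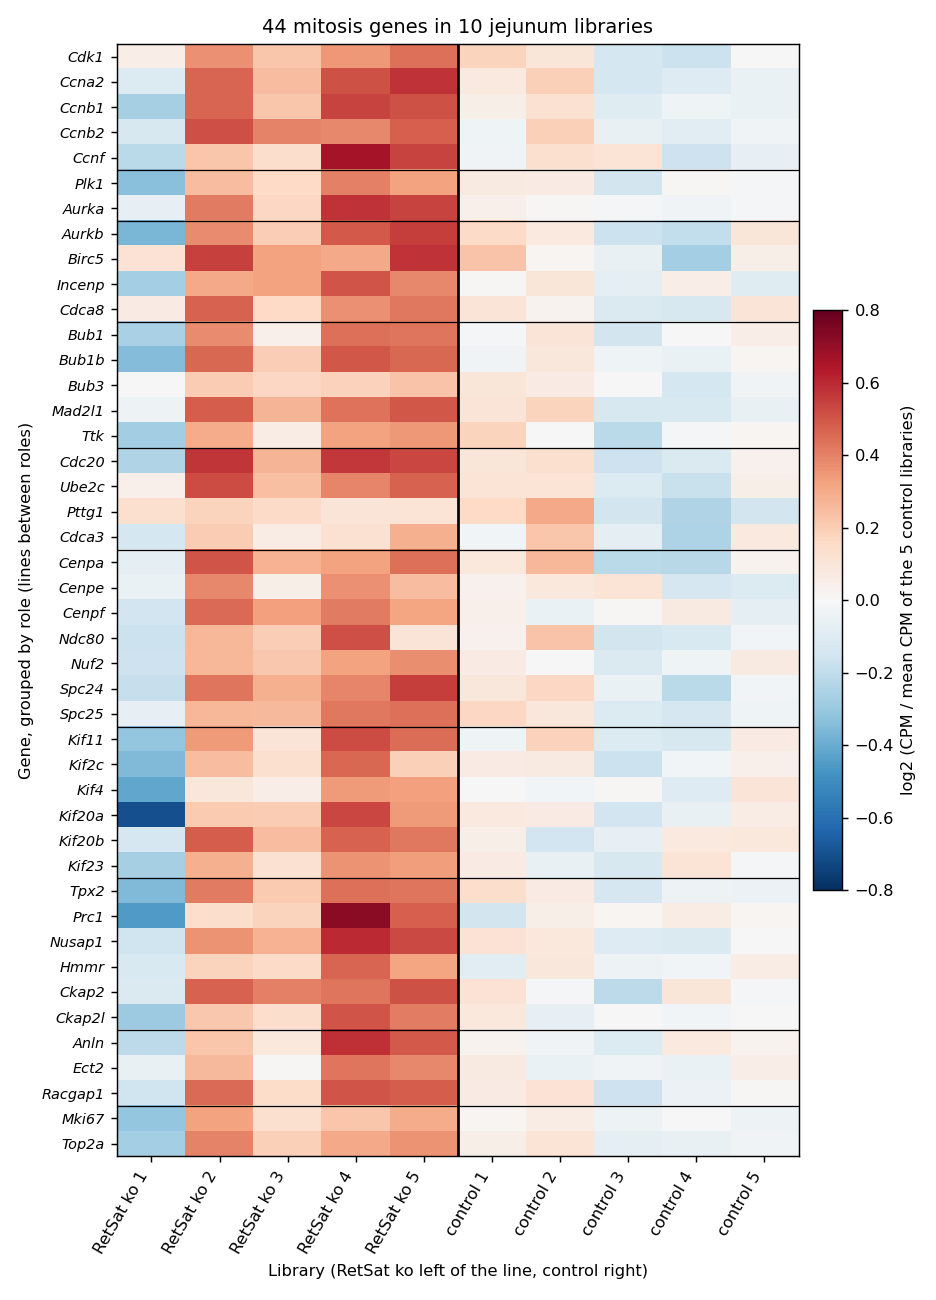
Level of each of the 44 mitosis genes (rows, grouped by role) in each library (columns), as log2 of its CPM over the mean CPM of the 5 control libraries. Red cells are above and blue cells below the control mean. RetSat ko 2 to 5 are above the control mean in all 44 genes, and RetSat ko 1 is below all control libraries in 28 of them.

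Without RetSat ko 1, 25 of the 44 genes rose past the adjusted threshold in edgeR and 0 fell, in a fit in which 1.95% of the 19001 tested genes were called higher. The median log2 fold change was then 0.36 (1.29-fold), from 0.14 for Pttg1 to 0.49 for Cdc20, against 0.03 over all genes tested. DESeq2 on the same 9 libraries called 37 of the 44 higher (5.02% of all genes were), and limma-voom called 25 (1.78% of all genes were). RetSat ko 2 to 5 all lay above every control library for 35 of the 44 genes, as 5.93% of all tested genes did. Of the 10 fits that each left out 1 library, the fit without RetSat ko 1 alone called any of the 44. Leaving out a library that lies low in these genes raises their fold changes by construction, so the count without it describes RetSat ko 2 to 5 and is no separate evidence. The same limit applies to every role below. There, a gene that rose without RetSat ko 1 is one that passed in this edgeR fit, where 1.95% of all tested genes were called higher.

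**Figure D2:**
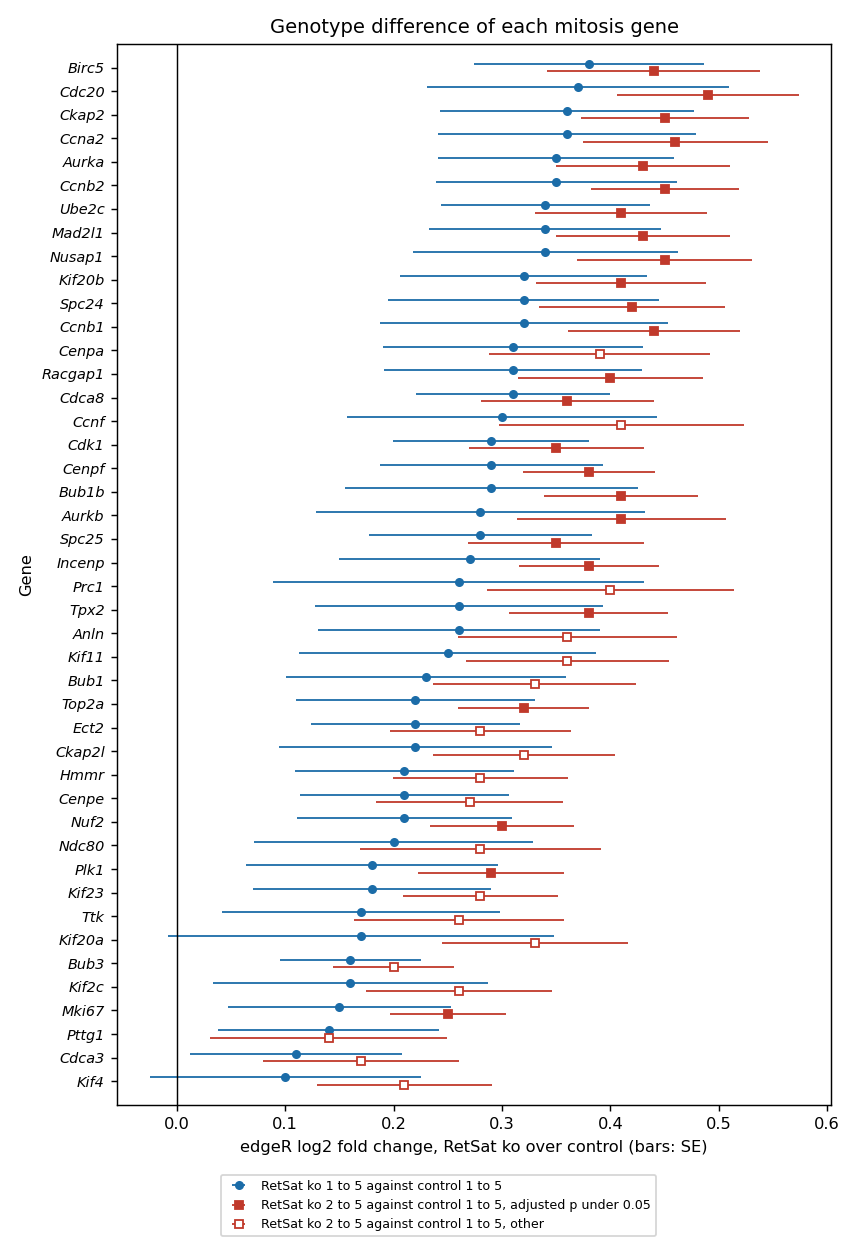
edgeR log2 fold change of RetSat ko over control with its SE for each of the 44 genes. Blue points are the fit of all 10 libraries, where no gene passes an adjusted p of 0.05. Red squares are the fit without RetSat ko 1, filled for the 25 genes that pass.

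The promoters of the 4 genes with the smallest unadjusted p that had an entry in the promoter table are shown because all 44 genes were above the control mean in RetSat ko 2 to 5, and each is the 250 bases before the RefSeq transcription start (GRCm38.p6, read 5′ to 3′ on the strand of the gene). Birc5 lies on chromosome 11 (chr11:117848987-117849236, plus strand), Ube2c on chromosome 2 (chr2:164769679-164769928, plus strand), Cdca8 on chromosome 4 (chr4:124936918-124937167, minus strand) and Cdk1 on chromosome 10 (chr10:69352913-69353162, minus strand). In the build of the count tables, GRCm39, the genes span chr11:117740077-117746569 (Birc5), chr2:164611818-164620742 (Ube2c), chr4:124812258-124833104 (Cdca8) and chr10:69170976-69188768 (Cdk1). Capitals mark CCAAT, the letters of the box that NF-Y binds, and TTTGAA, the core letters of the cell cycle homology region that MuvB complexes bind, each on either strand (ATTGG and TTCAAA are the opposite strand).
Birc5: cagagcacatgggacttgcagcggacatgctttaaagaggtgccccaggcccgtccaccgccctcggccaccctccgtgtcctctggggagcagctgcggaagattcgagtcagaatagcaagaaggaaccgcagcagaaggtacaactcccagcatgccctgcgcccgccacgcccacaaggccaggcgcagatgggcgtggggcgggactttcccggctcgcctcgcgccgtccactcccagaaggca
Ube2c: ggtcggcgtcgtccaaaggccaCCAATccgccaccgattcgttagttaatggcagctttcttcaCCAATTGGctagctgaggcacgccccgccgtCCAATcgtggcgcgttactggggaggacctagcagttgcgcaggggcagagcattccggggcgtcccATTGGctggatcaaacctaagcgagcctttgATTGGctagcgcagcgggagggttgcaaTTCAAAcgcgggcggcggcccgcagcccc
Cdca8: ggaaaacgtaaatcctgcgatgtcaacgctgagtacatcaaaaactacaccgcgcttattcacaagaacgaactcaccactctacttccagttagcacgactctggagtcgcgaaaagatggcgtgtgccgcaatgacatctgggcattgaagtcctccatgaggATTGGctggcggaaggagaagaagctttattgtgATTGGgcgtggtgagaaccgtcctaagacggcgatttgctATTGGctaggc
Cdk1: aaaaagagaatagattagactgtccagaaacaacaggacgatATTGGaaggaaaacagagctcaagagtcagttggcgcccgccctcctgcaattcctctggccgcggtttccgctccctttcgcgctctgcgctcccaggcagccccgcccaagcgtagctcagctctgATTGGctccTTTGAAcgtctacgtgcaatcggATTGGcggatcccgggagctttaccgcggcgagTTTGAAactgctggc
The Ube2c window holds CCAAT 6 times, with 2 of them overlapping on opposite strands, and TTTGAA once, on the opposite strand between 29 and 24 bases before the start. The Cdk1 window holds TTTGAA at 71 to 66 and at 15 to 10 bases before the start, and CCAAT 3 times. Cdca8 holds CCAAT 3 times, and the Birc5 window holds neither set of letters. Of the 44 genes, 38 matched an entry in the table. Among these 38, CCAAT was present in 29 genes (76.3%) and TTTGAA in 14 (36.8%), against 37.5% and 18.3% of the 27025 genes in the table. CCAAT occurred at least 2 times in 21 of the 38 (55.3%), against 11.5% of all genes. The median GC content of the windows was 59.1% in the 38 genes and 52.4% in all genes, a difference that these shares do not take into account. The match of letters is a description and says nothing of binding in jejunum.

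Cdk1 and its cyclins, which drive entry into mitosis, had a median log2 fold change of 0.32, and 4 of the 5 rose without RetSat ko 1 (Ccnf did not pass). Cdk1, the mitotic kinase, was at 28.1, 35, 31.6, 34.5 and 36.8 CPM in RetSat ko 1 to 5, against 30.7, 29, 24.6, 24.1 and 27.1 CPM in control 1 to 5. Ccnb2, a B-type cyclin, was at 26.8, 42, 38.6, 38.2 and 41 CPM in RetSat ko 1 to 5, against 28.7, 33.5, 28.1, 27.6 and 28.8 CPM in control 1 to 5. RetSat ko 2 to 5 were above every control library for both genes, and RetSat ko 1 lay inside the control range for Cdk1 and below it for Ccnb2. The log2 fold change was 0.29 ± 0.0906 for Cdk1 and 0.35 ± 0.111 for Ccnb2 (SE, edgeR adjusted p = 0.299 and 0.307). With RetSat ko 1 left out these were 0.35 ± 0.0808 and 0.45 ± 0.0682 (SE, edgeR adjusted p = 0.0396 and 0.0218). Further genes are given by their log2 fold change ± SE over all libraries. Ccna2, the cyclin of S and G2 phase, had 0.36 ± 0.119, Ccnb1, the other mitotic B-type cyclin, 0.32 ± 0.133, and Ccnf, an F-box protein of G2, 0.30 ± 0.143. The file headers show no option to count reads that map to several places, and the pseudogenes Ccnb1-ps and Ccnb2-ps held 0 to 9 and 42 to 92 counts per library.

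The kinases Plk1 and Aurka, which mature the centrosomes and promote mitotic entry, both rose without RetSat ko 1. Aurka was at 18.7, 26.1, 22, 29.2 and 28.5 CPM in RetSat ko 1 to 5, against 20.2, 19.7, 19.5, 19.2 and 19.4 CPM in control 1 to 5. Its log2 fold change was 0.35 ± 0.109 over all libraries (SE, edgeR adjusted p = 0.306) and 0.43 ± 0.0802 without RetSat ko 1 (adjusted p = 0.0274). RetSat ko 1 was below and RetSat ko 2 to 5 were above all control libraries, which lay between 19.2 and 20.2 CPM. Plk1, the Polo-like kinase, was at 21.4, 31.9, 30, 35.6 and 33.7 CPM in RetSat ko 1 to 5, against 28.3, 28.2, 24.4, 27.1 and 26.7 CPM in control 1 to 5. RetSat ko 1 was the lowest and RetSat ko 4 the highest of the 10 libraries for Plk1, and its log2 fold change of 0.18 ± 0.116 over all libraries (SE) compared with 0.29 ± 0.0675 without RetSat ko 1 (edgeR adjusted p = 0.545 and 0.0421).

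All 4 members of the chromosomal passenger complex, which corrects faulty attachments of chromosomes and later directs cytokinesis, rose without RetSat ko 1, with a median log2 fold change of 0.40 there and 0.30 over all libraries. Birc5, survivin, was at 31.1, 42.1, 36, 35.5 and 42.9 CPM in RetSat ko 1 to 5, against 33.6, 29.1, 27.7, 23.8 and 29.7 CPM in control 1 to 5. Cdca8, borealin, was at 24.7, 32.7, 26.4, 30.4 and 31.6 CPM in RetSat ko 1 to 5, against 25.3, 24, 21.7, 21.5 and 25.3 CPM in control 1 to 5. RetSat ko 1 lay inside the control range for both, and RetSat ko 2 to 5 lay above it. Birc5 had the largest log2 fold change of the 44 over all libraries, 0.38 ± 0.106 (SE, edgeR adjusted p = 0.291), and Cdca8 had 0.31 ± 0.0898 (adjusted p = 0.291). Aurkb, the kinase of the complex, had 0.28 ± 0.152, and Incenp, its scaffold, had 0.27 ± 0.12. In both of these RetSat ko 1 was below all control libraries.

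Of the 5 spindle checkpoint genes, Mad2l1 and Bub1b rose without RetSat ko 1, and Bub1, Bub3 and Ttk did not pass. Mad2l1, whose product binds and blocks the activator Cdc20, was at 21.9, 31.6, 27.3, 30.6 and 31.8 CPM in RetSat ko 1 to 5, against 24.2, 25.6, 20.6, 20.8 and 21.7 CPM in control 1 to 5. Bub3, a partner of the Bub kinases, was at 52.4, 60.5, 58.9, 59.5 and 61.4 CPM in RetSat ko 1 to 5, against 56, 54.8, 52.2, 47.7 and 51.5 CPM in control 1 to 5. For Mad2l1 RetSat ko 2 to 5 were all above the control libraries and RetSat ko 1 was among them. The same held for Bub3, with a smaller log2 fold change of 0.16 ± 0.0648 (SE, edgeR adjusted p = 0.364), beside 0.34 ± 0.107 for Mad2l1 (adjusted p = 0.302). Bub1b, the BubR1 kinase, had a log2 fold change of 0.29 ± 0.135, Bub1 0.23 ± 0.129 and Ttk, the kinase Mps1, 0.17 ± 0.128.

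The next genes encode partners of the anaphase-promoting complex, its target securin and an F-box-like adaptor. Of these, Cdc20 and Ube2c rose without RetSat ko 1, and Pttg1 and Cdca3 did not pass. Ube2c, the ubiquitin-conjugating enzyme that works with the complex, was at 43.5, 60.7, 50.1, 55.6 and 58.8 CPM in RetSat ko 1 to 5, against 45.6, 45.8, 39.2, 37.5 and 43.8 CPM in control 1 to 5. Cdc20, its mitotic activator, was at 25.8, 45.3, 36.9, 45.1 and 44.2 CPM in RetSat ko 1 to 5, against 32.6, 33.3, 27.1, 28.1 and 31.2 CPM in control 1 to 5. RetSat ko 1 was inside the control range for Ube2c and below all controls for Cdc20. The log2 fold changes over all libraries were 0.34 ± 0.0961 for Ube2c and 0.37 ± 0.139 for Cdc20 (SE, edgeR adjusted p = 0.291 and 0.332), and Cdc20 had the largest value of the 44 without RetSat ko 1, 0.49 ± 0.0836 (adjusted p = 0.0253). Pttg1, securin, the inhibitor of separase, had 0.14 ± 0.102, and Cdca3, which takes part in the destruction of the kinase Wee1, had 0.11 ± 0.0977. For Pttg1 the 5 RetSat ko libraries lay between 14.5 and 15.3 CPM, inside the control range of 11.4 to 16.7 CPM.

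The 7 genes of the centromere and outer kinetochore had a median log2 fold change of 0.28, and Cenpf, Nuf2, Spc24 and Spc25 rose without RetSat ko 1. Cenpf, a large protein of the outer kinetochore, was at 13.1, 20, 18.3, 19.4 and 18.2 CPM in RetSat ko 1 to 5, against 15, 14.1, 14.7, 15.3 and 13.8 CPM in control 1 to 5. Spc25, a subunit of the Ndc80 complex that grips microtubules, was at 10.7, 13.4, 13.3, 14.9 and 15.1 CPM in RetSat ko 1 to 5, against 12.5, 11.9, 10.3, 10.2 and 10.9 CPM in control 1 to 5. In both genes RetSat ko 2 to 5 were above all controls, and RetSat ko 1 was below all controls for Cenpf and inside their range for Spc25. The log2 fold changes were 0.29 ± 0.103 and 0.28 ± 0.103 over all libraries (SE, edgeR adjusted p = 0.323 and 0.331), and 0.38 ± 0.0607 and 0.35 ± 0.0814 without RetSat ko 1 (adjusted p = 0.0246 and 0.04). The other subunits of the Ndc80 complex had 0.32 ± 0.125 (Spc24), 0.21 ± 0.0991 (Nuf2) and 0.20 ± 0.129 (Ndc80). Cenpa, the histone H3 variant of centromeres, had 0.31 ± 0.12, and Cenpe, a kinetochore motor, had 0.21 ± 0.096.

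Among the 6 mitotic kinesins only Kif20b passed without RetSat ko 1, and their median log2 fold change over all libraries was 0.18. Kif20b, a motor of late mitosis, was at 9.88, 15.2, 12.9, 15.1 and 14.5 CPM in RetSat ko 1 to 5, against 11.2, 9.76, 10.3, 11.5 and 11.5 CPM in control 1 to 5. Kif11, the motor that pushes spindle poles apart, was at 23.4, 36.7, 31.2, 41.7 and 39.6 CPM in RetSat ko 1 to 5, against 28.4, 32.9, 26.9, 26.5 and 30.4 CPM in control 1 to 5. RetSat ko 1 was the lowest library for Kif11, and in Kif20b it lay inside the control range. Kif20b had a log2 fold change of 0.32 ± 0.114 over all libraries and 0.41 ± 0.0783 without RetSat ko 1 (SE, edgeR adjusted p = 0.324 and 0.0295), and Kif11 had 0.25 ± 0.137 and 0.36 ± 0.0937 (adjusted p = 0.478 and 0.0526). Kif23, a subunit of centralspindlin, had 0.18 ± 0.11, Kif2c, a microtubule depolymerase, 0.16 ± 0.127, Kif4, a motor of chromosome arms and the midzone, 0.10 ± 0.125, and Kif20a, a motor of the central spindle, 0.17 ± 0.178. Kif20a had the largest ratio between the highest and the lowest RetSat ko library of the 44 genes, with 7.04, 13.3, 13.2, 16.6 and 14.5 CPM in RetSat ko 1 to 5, against 12.1, 12, 10.3, 11 and 11.9 CPM in control 1 to 5. RetSat ko 1 lay below all controls in 5 of the 6 kinesins, all but Kif20b.

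Of the 6 spindle and microtubule-binding proteins, Tpx2, Nusap1 and Ckap2 rose without RetSat ko 1, and RetSat ko 2 to 5 lay above all controls in each of the 6. Ckap2, a microtubule-stabilizing protein of the spindle, was at 8.76, 13.1, 12.5, 12.8 and 13.5 CPM in RetSat ko 1 to 5, against 10.3, 9.38, 8.19, 10.2 and 9.41 CPM in control 1 to 5. Nusap1, a protein that bundles microtubules near chromatin, was at 17.2, 24.6, 23.3, 29 and 27.7 CPM in RetSat ko 1 to 5, against 20.8, 20.4, 17.9, 17.7 and 19.2 CPM in control 1 to 5. Their log2 fold changes were 0.36 ± 0.117 and 0.34 ± 0.122 over all libraries (SE, edgeR adjusted p = 0.314 and 0.321), and 0.45 ± 0.0776 and 0.45 ± 0.0807 without RetSat ko 1 (adjusted p = 0.0257 and 0.0263). Tpx2, an activator of Aurora A, had 0.26 ± 0.133, and Prc1, which crosslinks microtubules of the midzone, had 0.26 ± 0.171. Hmmr, a spindle protein also known as a hyaluronan receptor, had 0.21 ± 0.101, and Ckap2l, a relative of Ckap2, had 0.22 ± 0.126.

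Of the cytokinesis genes Racgap1 rose without RetSat ko 1, and Anln and Ect2 did not pass. Racgap1, the partner of Kif23 in centralspindlin, was at 26, 39.7, 32.1, 41.1 and 40.6 CPM in RetSat ko 1 to 5, against 30.4, 31.5, 25.8, 28.1 and 29.2 CPM in control 1 to 5. Ect2, the exchange factor that activates RhoA at the cell equator, was at 19.5, 24.3, 20.4, 27.3 and 26.5 CPM in RetSat ko 1 to 5, against 21.4, 19.6, 20, 19.6 and 21.1 CPM in control 1 to 5. RetSat ko 2 to 5 were above all controls for Racgap1, whereas RetSat ko 3 lay inside the control range for Ect2. Racgap1 had a log2 fold change of 0.31 ± 0.119 and Ect2 of 0.22 ± 0.0963 over all libraries (SE, edgeR adjusted p = 0.344 and 0.399). Anln, anillin, the scaffold of the contractile ring, had 0.26 ± 0.13.

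Top2a, which untangles DNA, and Mki67, the coat protein of mitotic chromosomes, are common markers of proliferating cells. Top2a was at 77, 122, 106, 114 and 119 CPM in RetSat ko 1 to 5, against 96, 100, 88, 89 and 91.1 CPM in control 1 to 5. Mki67 was at 68.5, 106, 93, 99.1 and 104 CPM in RetSat ko 1 to 5, against 85.8, 88.5, 82.6, 85.2 and 82.7 CPM in control 1 to 5. In both, RetSat ko 1 was the lowest of the 10 libraries and RetSat ko 2 to 5 lay above all controls. Both rose without RetSat ko 1, Top2a with 0.32 ± 0.0604 and Mki67 with 0.25 ± 0.0535 (SE, edgeR adjusted p = 0.0291 and 0.0353), against 0.22 ± 0.11 and 0.15 ± 0.103 over all libraries (adjusted p = 0.445 and 0.575).

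Compared per exon length, as TPM from the deposited counts and gene lengths, the control means of the 44 genes lay between 2.37 TPM for Ndc80 and 50.2 TPM for Ccnb2. Ccnb2 had 66.2 ± 14.6 TPM in RetSat ko and 50.2 ± 5.75 TPM in control (SD, n = 5 each). Next in the order of control means came Cdc20 with 57.5 ± 15.5 TPM in RetSat ko and 42.7 ± 4.8 TPM in control, and Ube2c with 56 ± 10.8 TPM in RetSat ko and 42.6 ± 4.34 TPM in control. Cdca3 followed with 37 ± 6.37 TPM in RetSat ko and 33.1 ± 4.58 TPM in control, and then Plk1 with 37.7 ± 9.08 TPM in RetSat ko and 32 ± 3.14 TPM in control. The control means ± SD of Ccnb2, Cdc20 and Ube2c overlapped, as did those of Cdca3 and Plk1. At the low end Ndc80 had 2.82 ± 0.654 TPM in RetSat ko and 2.37 ± 0.328 TPM in control, and Cenpf had 3.13 ± 0.669 TPM in RetSat ko and 2.47 ± 0.178 TPM in control, again with overlapping control values. The length in the files is that of all annotated exons, so genes with long rare exons read lower on this scale than their main transcript would.

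The position of RetSat ko 1 differed between the genes. It was below all 5 control libraries for 28 of the 44 and inside their range for 16, and it was above all controls for none. On the log2 scale its level relative to the control mean was -0.70 for Kif20a, -0.46 for Prc1, -0.42 for Kif4 and -0.37 for Aurkb at the low end, and 0.13 for Pttg1, 0.11 for Birc5 and 0.07 for Cdca8 at the high end. RetSat ko 3 was the lowest of RetSat ko 2 to 5 in the median of the 44, at 0.19 above the control mean on the log2 scale, with 0.36 in RetSat ko 2 and 0.43 in both RetSat ko 4 and RetSat ko 5. The control libraries spanned -0.11 to 0.09.

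Other genes of mitosis, in a list of 79 that holds none of the 44, leaned the same way. In 71 of the 79 the log2 fold change over all libraries was positive (median 0.22), 0 passed in edgeR with 30 at an unadjusted p under 0.05, and DESeq2 called Mis12 and Cks2. In either direction 12.2% of all tested genes had such an unadjusted p, and this share applies to the lists that follow too. DESeq2 over all libraries called 123 of all 18654 tested genes. In RetSat ko 2 to 5 against control, 18 rose in edgeR and 0 fell (median 0.31). That fit called 1.95% of all tested genes higher and 2.5% lower, and these shares also apply to the lists that follow. Mis12, a subunit of the kinetochore, was at 23.7, 22.8, 19.6, 24 and 23.5 CPM in RetSat ko 1 to 5, against 18.4, 18.8, 18.8, 19.7 and 17.9 CPM in control 1 to 5. Cks2, a small subunit that docks on Cdk1, was at 10, 11.2, 10.6, 10.1 and 11.9 CPM in RetSat ko 1 to 5, against 9.49, 9.12, 7.87, 7.41 and 8.2 CPM in control 1 to 5. For Cks2 all 5 RetSat ko libraries, RetSat ko 1 among them, lay above all 5 controls, whereas for Mis12 RetSat ko 3 lay below control 4. Their log2 fold changes were 0.28 ± 0.0692 and 0.35 ± 0.091 (SE, edgeR adjusted p = 0.291 for each).

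Regulators of mitotic transcription were split, with 14 of 22 tested positive (median 0.09), 0 past the threshold over all libraries in edgeR and in DESeq2, and 4 of 22 in either direction at an unadjusted p under 0.05, not far from the share of all genes. Foxm1, the activator of G2 and M phase genes, was at 10.5, 15.7, 14.6, 16.7 and 17.6 CPM in RetSat ko 1 to 5, against 12.7, 12.3, 10.9, 11.7 and 11.8 CPM in control 1 to 5. Rb1, the retinoblastoma protein that restrains entry into S phase, was at 62.9, 47.1, 50.2, 52.4 and 47.5 CPM in RetSat ko 1 to 5, against 60.4, 62.5, 65.1, 64.5 and 59.9 CPM in control 1 to 5. In both genes RetSat ko 1 stood with or beyond the controls and away from RetSat ko 2 to 5. Without RetSat ko 1 Foxm1 rose, with a log2 fold change of 0.44 ± 0.0744, and Rb1 fell, with -0.34 ± 0.0547 (SE, edgeR adjusted p = 0.0253 and 0.0246), and these were the 2 of 22 that passed.

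Of 16 tested core subunits and helpers of the anaphase-promoting complex, most of which are made at all stages of the cycle, 12 were positive with a median of 0.08, and 0 passed over all libraries in edgeR or DESeq2 (4 at an unadjusted p under 0.05). Ube2s, the chain-extending enzyme of the complex, was at 19.6, 23.8, 22.5, 21.7 and 24.8 CPM in RetSat ko 1 to 5, against 19.2, 19.6, 17.1, 16.3 and 19.2 CPM in control 1 to 5. Anapc11, its RING subunit, was at 35.9, 38.8, 37.1, 34.7 and 37.5 CPM in RetSat ko 1 to 5, against 34.2, 33.5, 32.4, 30.4 and 32.3 CPM in control 1 to 5. All RetSat ko libraries lay above all controls for Anapc11, and in Ube2s RetSat ko 1 reached only the highest control. Ube2s rose without RetSat ko 1 (0.34 ± 0.0731, SE, edgeR adjusted p = 0.0336), as did Anapc5, a subunit chosen after its values were seen (0.20 ± 0.0505, adjusted p = 0.0498).

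Genes of DNA replication, which act before mitosis, had 40 of 43 positive with a median of 0.18 over all libraries. In edgeR 0 passed, 15 had an unadjusted p under 0.05, and DESeq2 called Rpa3. Without RetSat ko 1, 10 rose and 0 fell (median 0.27). Rpa3, a subunit of the single-strand DNA binding complex, was at 17.1, 19.2, 18.1, 17.4 and 18.4 CPM in RetSat ko 1 to 5, against 14.1, 16, 13.8, 13.5 and 15.9 CPM in control 1 to 5. Tyms, thymidylate synthase, was at 24.5, 28.8, 28.4, 29.3 and 33.2 CPM in RetSat ko 1 to 5, against 24.1, 26.2, 22, 21.1 and 23 CPM in control 1 to 5. All RetSat ko libraries of Rpa3 were above all controls, and for Tyms RetSat ko 1 lay inside the control range. G1 cyclins, their kinases and the kinase inhibitors were split, with 8 of 14 positive (median 0.06), 4 at an unadjusted p under 0.05 and 0 past the threshold in edgeR or DESeq2. Cdk2 was at 16.4, 20.7, 19.1, 20 and 21.4 CPM in RetSat ko 1 to 5, against 16.3, 17.9, 14.1, 13.4 and 15.8 CPM in control 1 to 5, and Cdkn2c, the inhibitor p18, was at 11.8, 14.6, 12.9, 14.9 and 14.7 CPM in RetSat ko 1 to 5, against 12.4, 13, 10.7, 11.7 and 12.1 CPM in control 1 to 5. RetSat ko 2 to 5 of Cdk2 were above all controls, whereas RetSat ko 3 of Cdkn2c lay among them. Cdk2 rose without RetSat ko 1 (0.39 ± 0.0864, SE, edgeR adjusted p = 0.0353), as did Ccnd1, a G1 cyclin chosen after its values were seen (0.41 ± 0.0752, adjusted p = 0.0268). Whether the lists differ from the 44 genes was not tested.

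**Figure D3:**
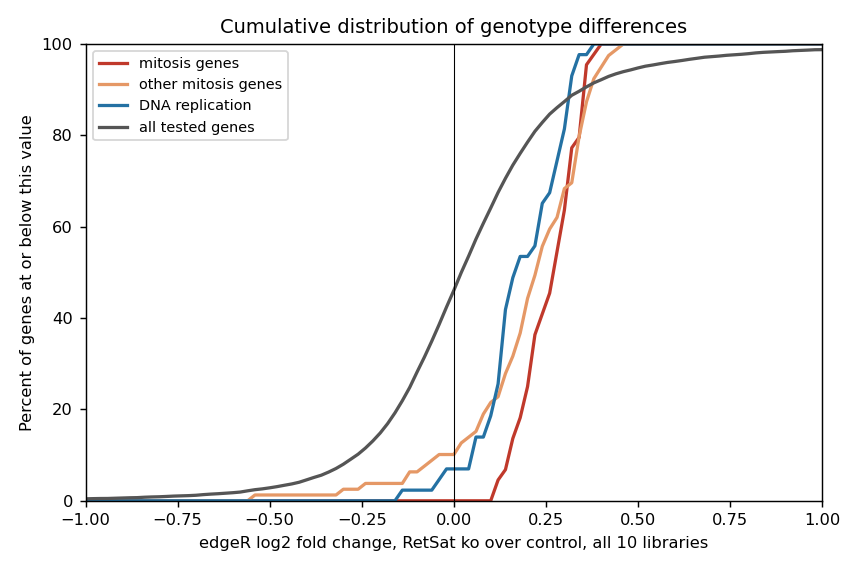
Cumulative share of genes (vertical axis, percent) at or below each edgeR log2 fold change of RetSat ko over control with all 10 libraries (horizontal axis). The curve of the 44 mitosis genes starts at 0.10 and its median is 0.27, the lists of other mitosis genes and of DNA replication have medians of 0.22 and 0.18, and the median of all tested genes is 0.02.

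Markers of other cells also varied between libraries. Absorptive enterocyte markers were negative in 10 of 10 (median -0.37, 0 past the threshold), with a summed level of 47740, 30451, 31939, 33243 and 34871 CPM in RetSat ko 1 to 5, against 48246, 38162, 56193, 33380 and 42874 CPM in control 1 to 5. RetSat ko 1, lowest in the mitosis genes, had the highest enterocyte sum of its group. Control 3 and control 4, which had nearly the same mitosis sum, had the highest and the lowest enterocyte sum of the controls. Sis and Alpi went the other way, at 6193 and 3172 CPM in control 3 and 6362 and 4850 CPM in control 4. The other enterocyte markers were higher in control 3 than in control 4. Crypt stem cell markers were positive in 7 of 8 (median 0.23, 0 past the threshold), with 600 to 868 CPM in RetSat ko and 558 to 762 CPM in control, and RetSat ko 1 was again the lowest of its group. Paneth cell markers, which mark cells of the crypt base that do not divide, were positive in 6 of 6 (median 0.83, 0 past the threshold), with 1144 to 2928 CPM in RetSat ko and 584 to 1968 CPM in control. In the fit without RetSat ko 1, the enterocyte genes Sis, Treh and Slc6a19 fell (3 of 10), the stem cell marker Rgmb rose (1 of 8), and none of the 6 Paneth markers passed in edgeR, in a fit that called 2.5% of all genes lower and 1.95% higher. No marker of these 3 lists was at 0 in all libraries. Of the fat cell genes, Adipoq, chosen after its values were seen, was at 0.0392, 0.342, 3.59, 5.07 and 6.58 CPM in RetSat ko 1 to 5, against 0.148, 0.875, 2.57, 0 and 0.0368 CPM in control 1 to 5. RetSat ko 3 to 5 were above all controls for Adipoq, and RetSat ko 1 and RetSat ko 2 were among them. The part of these cell types in the result was not tested.

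Lymphoid follicles also hold dividing cells, so B cell markers are given beside the mitosis genes. The 12 B cell and follicle markers summed to 23.3, 201, 61.8, 21.3 and 18.3 CPM in RetSat ko 1 to 5, against 17.1, 18.3, 16.7, 90.2 and 22.5 CPM in control 1 to 5, and 10 of 10 tested were positive (median 1.26, 0 past the threshold). The 6 tested germinal centre B cell markers were positive in 4 and negative in 2 (median 0.31, 0 past the threshold). They summed to 53.8, 42.7, 39.1, 36.1 and 33.2 CPM in RetSat ko 1 to 5, against 39.9, 45.5, 44.3, 46.2 and 39.7 CPM in control 1 to 5, most of it from Fas and Bcl6, which other cells also express. With the B cell score as a covariate the 44 genes were all positive, with a median of 0.27 as without it. Without the 3 libraries of highest B cell score (RetSat ko 2, RetSat ko 3 and control 4), all 44 were positive with a median of 0.23. Of the 44, 4 had an unadjusted edgeR p under 0.05, beside 831 of all 18990 genes tested in that fit. With the acinar score as a covariate the median was 0.30. Without the 4 libraries of highest acinar score (RetSat ko 1, RetSat ko 2, control 4 and control 5) it was 0.34. There 37 of the 44 had an unadjusted edgeR p under 0.05, beside 3092 of all 18944 genes tested. Leaving out RetSat ko 1 alone gave a median of 0.36 with 42 at that level. The fit without the 4 libraries also lacks RetSat ko 1, so it cannot tell the absence of that library from that of acinar cells. The acinar sum was 459 CPM in RetSat ko 1 and 2649 CPM in RetSat ko 2. All 44 genes were above the control mean in RetSat ko 2, and 5 were in RetSat ko 1. In the B cell and acinar fits 0 of the 44 passed the adjusted threshold in edgeR, whereas 25 passed without RetSat ko 1 alone. Beyond these fits, the part of B cells and acinar cells in the result was not tested.

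**Figure D4:**
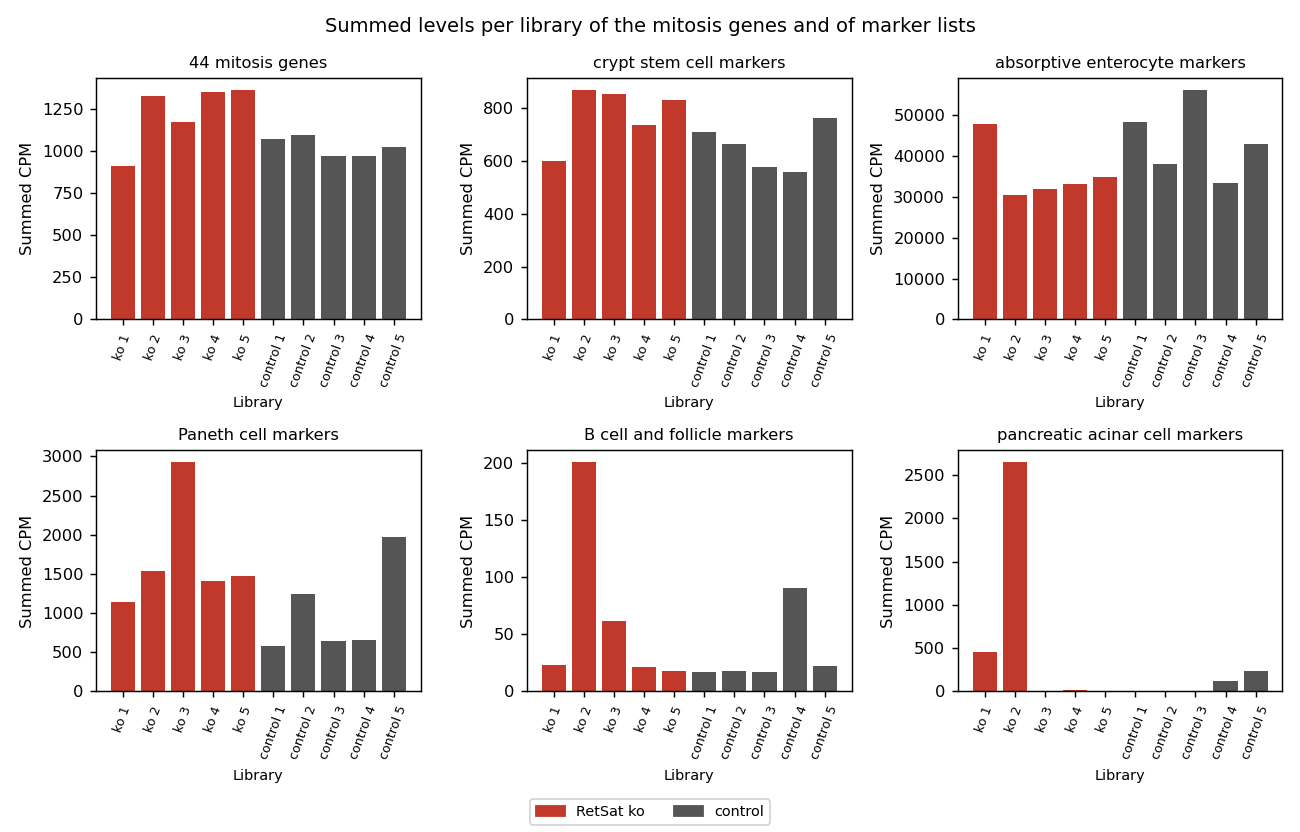
Summed CPM per library (bars) of the 44 mitosis genes and of 5 marker lists, with RetSat ko in red and control in grey. RetSat ko 1 has the lowest mitosis sum (914 CPM) and RetSat ko 5 the highest (1365 CPM). The B cell and acinar sums are highest in RetSat ko 2 (201 and 2649 CPM).

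The counts do not use strand, and 9 of the 44 genes overlap a counted gene on the opposite strand (Nusap1, Ccna2, Cdc20, Cdca8, Prc1, Plk1, Bub3, Kif20a and Kif4), so reads in the shared stretch cannot be told apart.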

How the data were processed

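The deposited values are read counts per gene, which the authors made with featureCounts 2.0.1 on exons of the GENCODE M28 annotation, assigning each read to its largest overlap and without options for strand, pairs or reads with several locations, per the file headers. Trimming with Trimmomatic, alignment with STAR and the build GRCm39 come from the submitters' processing notes. The deposited files also give a summed exon length per gene, used here for TPM. Gene symbols came from a name table that matched 52081 of 55414 identifiers (93.99%), and identifiers without a symbol held 0.81% of counts. All library columns were used. The count test was edgeR 4.0.16 in R 4.3.3 (filterByExpr, TMM, robust quasi-likelihood F-test, Benjamini-Hochberg over the 18654 genes that passed, threshold 0.05), without covariates. The SE is the absolute log2 fold change over the square root of F. DESeq2 1.42.0, limma 3.58.1, other scalings and filters, covariates and left-out libraries were alternatives. The fits without the libraries of highest B cell or acinar score, and DESeq2 and limma-voom without RetSat ko 1, were added after seeing the data. No pair of libraries agreed within sampling noise. The 44 genes and all lists were chosen with earlier results of these data known. Every one of the 44 is named, with values per library for the 2 of each role with the smallest unadjusted p, and the 2 with the smallest of each companion list. Kif20a was added to these after its values were seen. The edgeR step was tested on simulated counts. Depth of 102844680 to 128730695 counts per library left at least 532 counts on each of the 44 genes.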

Additional observations from a re-analysis of the deposited data

Results flagged for a closer look

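In groups of 5 libraries, values whose gap to the next was more than 0.71 of the group's range (Dixon's test) are listed. Chance flags about 1 in 20 groups, and 138 groups were tested. RetSat ko 1 lay far below the other RetSat ko libraries in Ccnb2 (26.8 CPM), Bub3 (52.4 CPM), Cenpf (13.1 CPM) and Ckap2 (8.76 CPM), and far above them in the sum of enterocyte markers (47740 CPM). Among the controls, Ccnb2 stood high in control 2 (33.5 CPM) and Prc1 stood low in control 1 (13.7 CPM). Mis12 was low in RetSat ko 3 (19.6 CPM). Retsat was high for its group in RetSat ko 5 (33.4 CPM). The Paneth cell sum was high in RetSat ko 3 (2928 CPM), and the B cell and acinar sums were high in RetSat ko 2 (201 and 2649 CPM). In control the B cell sum was high in control 4 (90.2 CPM).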

How the results depend on the processing

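In every alternative run, all 44 genes kept a positive log2 fold change, so none of them reversed. The other genes named were not followed through each setting. Of 924 values of these 44 genes under other settings, 899 stayed on the same side of the adjusted threshold and 25 passed it, all 25 without RetSat ko 1. The fits added after seeing the data are not among these 924 values. Leaving out 1 library at a time gave 0 to 25 called genes among the 44, 5 to 846 among all genes (6 with all libraries) and a median of the 44 of 0.201 to 0.362. The upper values all come from the fit without RetSat ko 1. On the same alternatives, other mitosis genes gave 0 to 18 calls and medians of 0.182 to 0.308, DNA replication genes 0 to 10 calls and medians of 0.133 to 0.272, and the transcription control, anaphase-promoting complex and G1 lists 0 to 2 calls each. DESeq2 on all libraries called 123 genes, with 2 of the other mitosis genes and 1 of DNA replication, and limma-voom with sample weights called 10 genes. On the 9 libraries other than RetSat ko 1, DESeq2 called 2446 genes and 37 of the 44, and limma-voom 752 genes and 25 of the 44 with a median of 0.36. The cause of these differences between tools was not tested. The labels number the replicates 1 to 5 in both groups, but deviations of same-numbered libraries correlated at -0.149 to 0.00212. No pairing by number was seen in these values, which cannot exclude one. With the replicate block the median of the 44 was 0.244, with 16 at an unadjusted p under 0.05 and 0 called, and 4 genes were called in all. The SE of the 44 log2 fold changes, 0.0648 to 0.178, limits what 5 libraries a group can separate.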

Other observations

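Other marker lists were measured beside the mitosis genes, and none of their genes passed the edgeR threshold over all libraries. T cell markers were negative in 6 of 6 (median log2 fold change -0.42), with summed levels of 65.8 to 151 CPM in RetSat ko and 72.4 to 248 CPM in control. Plasma cell markers were positive in 4 of 4 (median 0.23), with 549 to 983 CPM in RetSat ko and 422 to 1054 CPM in control. Erythroid markers were negative in 5 of 5 (median -0.67), with 7.68 to 18 CPM in RetSat ko and 14 to 30.2 CPM in control. Smooth muscle markers were positive in 6 of 6 (median 0.27), with 396 to 718 CPM in RetSat ko and 158 to 568 CPM in control. Intestinal epithelium markers were negative in 5 of 6 (median -0.10), with 8499 to 13808 CPM in RetSat ko and 10445 to 13640 CPM in control. In each of these lists the summed ranges of both groups overlapped. Adipocyte markers were positive in 5 of 6 (median 2.08), and most of their sum came from Cidec, at 117 to 219 CPM in RetSat ko and 126 to 230 CPM in control. Plin1 and Lep are given after their values were seen. Plin1 was at 0.0196, 0.55, 3.47, 4.43 and 6.59 CPM in RetSat ko 1 to 5, against 0.185, 0.737, 2.48, 0.0173 and 0.0919 CPM in control 1 to 5. Lep was at 0.0392, 0.433, 3.36, 8.31 and 10.5 CPM in RetSat ko 1 to 5, against 0.0742, 1.34, 4.06, 0 and 0.0368 CPM in control 1 to 5. Without RetSat ko 1 the adipocyte marker Adrb3 rose (1 of 6) in edgeR, and no gene of the other lists of this paragraph passed. That fit called 1.95% of all tested genes higher.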
